A study of Rattus norvegicus with 6 samples.

Results

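The genes described here are 96 membrane transporters of the rat, which carry sugars, polyols, vitamins, monocarboxylates, organic ions, fatty acids, nucleosides, lipids and drugs. They were chosen by name: every gene symbol on the array that begins with Slc2a, Slc5a, Slc16a, Slc22a, Slc27a, Slc28a, Slc29a, Slco, Abca, Abcb, Abcc or Abcg was taken, except Slc2a1 and Slco1c1. They made up 96 of the 12167 named genes, and each was read from the brightest of its probes. The study cut circumventricular organs and ventricle wall out of the brains of untreated, normal adult male Sprague-Dawley rats with a laser, amplified 3 ng of RNA from each and hybridised it to one-colour arrays. The pineal gland was measured on 2 arrays. The subfornical organ, the subcommissural organ and, away from both, the ependyma of the third ventricle were each measured on 1 array from a pool of 2. A pool of total normal brains on 1 array served as the reference. Nothing in the labels tells if the 2 pineal gland arrays hold RNA of different animals, so every p-value reflects the scatter of this pair alone, which could be technical.

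Transporters decide which small molecules enter and leave a cell. Solute carriers (SLC and SLCO genes) move their substrate down a gradient or together with another solute, whereas ABC proteins mostly spend ATP to push lipids, conjugates and drugs across a membrane. In most of the brain the capillary wall is sealed, and pumps such as P-glycoprotein (Abcb1a) and BCRP (Abcg2) return drugs to the blood. The pineal gland and the subfornical organ have leaky capillaries, while the subcommissural organ is a secretory ependymal gland with sealed ones.

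The upstream regions of 5 transporters are shown because these genes carry the tissue patterns described below. Slco4a1, Abca7 and Abcc1 were highest in the pineal gland, Slc22a3 in the subfornical organ and Slc27a3 in the ependyma. The sequences are the 250 bases before each gene's start in RefSeq, build GRCr8, written 5′ to 3′ on the gene's strand: chr3:187936632-187936881 on the plus strand for Slco4a1, chr7:10361990-10362239 on the minus strand for Abca7, chr10:1162368-1162617 on the minus strand for Abcc1, chr1:50782968-50783217 on the plus strand for Slc22a3 and chr2:178155504-178155753 on the minus strand for Slc27a3. Capitals mark GC boxes (GGGCGG, or CCGCCC on the other strand).
Slco4a1: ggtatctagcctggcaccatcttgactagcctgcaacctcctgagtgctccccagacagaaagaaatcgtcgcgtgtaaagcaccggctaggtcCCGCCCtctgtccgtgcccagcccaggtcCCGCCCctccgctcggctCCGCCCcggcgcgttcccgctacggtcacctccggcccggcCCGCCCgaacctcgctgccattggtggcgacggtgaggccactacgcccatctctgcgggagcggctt
Abca7: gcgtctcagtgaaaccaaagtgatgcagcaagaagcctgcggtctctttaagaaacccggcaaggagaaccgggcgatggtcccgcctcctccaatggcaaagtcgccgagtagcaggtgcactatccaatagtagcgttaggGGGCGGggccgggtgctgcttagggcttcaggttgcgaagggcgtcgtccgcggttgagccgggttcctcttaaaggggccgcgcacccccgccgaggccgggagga
Abcc1: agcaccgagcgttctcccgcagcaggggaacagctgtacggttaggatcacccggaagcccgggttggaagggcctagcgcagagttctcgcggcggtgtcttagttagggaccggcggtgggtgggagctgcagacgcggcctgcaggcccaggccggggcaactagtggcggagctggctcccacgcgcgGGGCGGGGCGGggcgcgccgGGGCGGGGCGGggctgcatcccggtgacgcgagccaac
Slc22a3: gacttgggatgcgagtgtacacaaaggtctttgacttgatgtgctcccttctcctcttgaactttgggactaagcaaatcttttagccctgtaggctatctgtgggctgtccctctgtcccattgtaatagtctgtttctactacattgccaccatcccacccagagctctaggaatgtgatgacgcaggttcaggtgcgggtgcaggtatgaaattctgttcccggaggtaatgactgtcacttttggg
Slc27a3: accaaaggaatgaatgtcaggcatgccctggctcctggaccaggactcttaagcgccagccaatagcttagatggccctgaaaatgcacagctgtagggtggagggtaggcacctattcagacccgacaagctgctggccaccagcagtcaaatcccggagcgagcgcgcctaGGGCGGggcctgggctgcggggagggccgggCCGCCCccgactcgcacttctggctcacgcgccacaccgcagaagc

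GC boxes occurred 4 times upstream of Slco4a1, 4 times upstream of Abcc1, 2 times upstream of Slc27a3 and 1 time upstream of Abca7, and these letters were not in the Slc22a3 window. The Slc22a3 window was also the poorest in G and C, at 48.8%, against 62.8% to 72.8% in the other 4. Promoters of 82 of the 96 transporters were found, and 39 of them (47.6%) held a GC box, compared with 32.4% of 27457 promoters of all genes. TAATCC, the core motif of the pineal homeobox factors Crx and Otx2, was searched on both strands and was in none of the 5 windows shown. It was in 6 of the 82 transporter promoters (7.32%) and in 6.33% of all promoters. A match describes letters in a window and is not a binding site.

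The dissected tissues carried their own defining genes. Tph1, the first enzyme of serotonin synthesis, was at 547 and 352 on the pineal gland arrays and at most 1.91 on any other array. Cuzd1 was at 116 in the subcommissural organ and Crygs at 139 in the subfornical organ, and both were under 1.05 on every other array. The other 3 genes of the subfornical list were not highest there alone or at all: Itgb4 was at 78.6 in the subfornical organ and 61.9 in the ependyma, Scn7a at 3.41 in the subfornical organ but 18.0 and 9.42 in the pineal gland, and Agtr1a at 1.96 in the subfornical organ, against 5.33 in total brain. The summed level of 6 genes of motile cilia was 1337 in the ependyma, 1188 in the subcommissural organ and 52.0 in total brain, with Foxj1, which drives ciliogenesis, under 1.05 on every array. The ependyma array also held Oxt, the oxytocin gene of hypothalamic neurons, at 317. Levels are linear intensities in arbitrary units. A gene counted as measured from 1.05, the median of all probes, and a fold whose lower side lay under 1.05 is given against 1.05 and written as "at least". Counts at 4-fold use the values as measured, down to a floor of 0.142. In dissected tissue, fewer cells of a type and less RNA per cell cannot be told apart.

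Of the 96 transporters, 68 were measured on at least 1 array, 28 on all 6 arrays and 28 on none. Per array, 42 (43.8%, subcommissural organ) to 51 (53.1%, subfornical organ and total brain) were measured, while 65.3% to 68.7% of all genes were. The families differed in this. In the Slc27a family of fatty acid transport proteins and in the Abca family of lipid transporters every gene on the array was measured somewhere, 6 of 6 and 5 of 5. In the Slco family of organic anion carriers 4 of 10 were, and in the Slc28a family of concentrative nucleoside carriers 1 of 3. Among the 68, total brain held the highest level for 19 genes, the subfornical organ for 17, the pineal gland for 13, the ependyma for 11 and the subcommissural organ for 8. Neither these counts nor those by family were made over all genes. The 75th percentile of all probes was also highest in total brain, at 7.93, against 4.90 to 6.31 on the other arrays.

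The brightest member was Slc22a17, a receptor for the iron-binding protein lipocalin 2, with a mean of 132 over the 6 arrays. It was at 79.2 and 50.7 in the pineal gland, 176 in the subcommissural organ, 158 in the subfornical organ, 103 in the ependyma and 226 in total brain. Slc27a1, a fatty acid transport protein, followed with a mean of 92.3, and Slc5a6, the sodium-coupled carrier of biotin and pantothenate, with 85.8. Slc5a6 was at 133 and 101 in the pineal gland, and between 53.2 and 83.8 on the other 4 arrays. Probes differ in how well they bind, so these values rank signals and not RNA amounts.

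**Figure D1:**
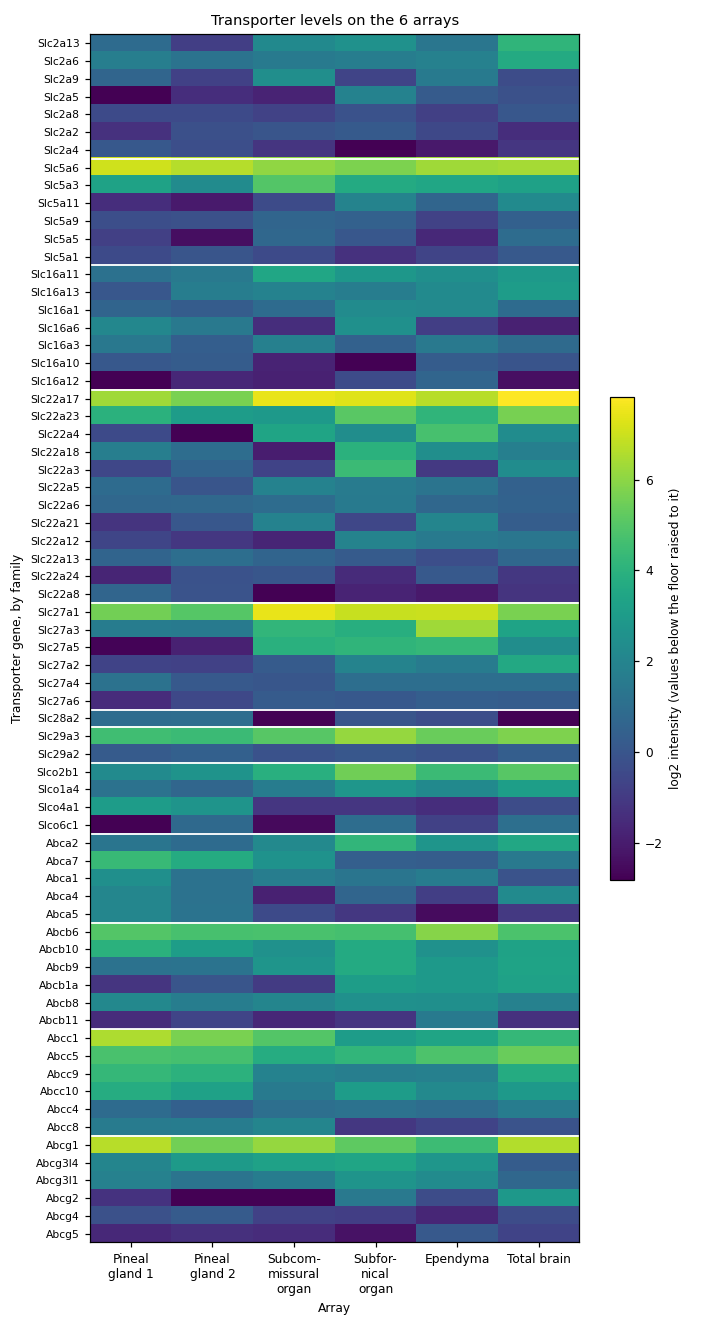
Colour gives the log2 intensity of the 68 transporter genes measured on at least 1 array (rows, grouped by family, brightest first) on the 6 arrays (columns). Slc5a6, Slc22a17 and Slc27a1 form bright bands across all columns, whereas Slco4a1 stands out in the pineal gland columns and Slc22a3 in the subfornical organ column.

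Several carriers with a known place in brain stayed under 1.05 on every array, total brain included. The highest value was 0.874 for Slc2a3, the neuronal glucose transporter, and 0.623 for Slc16a7, a neuronal lactate carrier. For the nucleoside carrier Slc29a1 it was 0.777, and for the monoamine carrier Slc29a4 it was 0.737. Slc5a7, which takes choline into cholinergic terminals, reached 0.741, the prostaglandin carrier Slco2a1 0.616 and the organic anion carrier Slco1a5 0.639. Total brain is a tissue that uses Slc2a3 and Slc16a7, so a low value here is not read as absence of the RNA.

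The pineal gland against total brain asks which carriers set the gland apart from brain at large. Slco4a1 and Abca7 were higher in the gland, and Slc2a13, Slc27a2, Abcb1a, Abcg2 and Slco2b1 were lower. Of 59 measured transporters, 6 were at least 4-fold higher and 18 at least 4-fold lower, 24 in all (40.7%). Of 9077 measured genes 21.2% differed as much, 6.83% higher and 14.4% lower. With values under 1.05 set to 1.05, an alternative added after seeing the data, 3 transporters were higher and 15 lower. Of all genes 382 were then higher and 1013 lower. By limma, a linear model across all genes, 7 rose and 19 fell with an adjusted p under 0.05, 26 of 59 (44.1%). Of all measured genes 24.0% were called, 7.72% higher and 16.3% lower. The median log2 difference was -0.47 for the transporters and -0.45 for all genes. The model's spread came from the pineal pair alone and gave each gene the same log2 standard error, 0.73, so that a call amounted to a log2 size of at least 1.82 (3.54-fold). limma used values down to the floor, and for 7 of the 26 calls the bound against 1.05 was smaller than that: Abca1, Abca5, Slc16a6 and Slc28a2 among those that rose, and Slc22a12, Slc5a5 and Slco6c1 among those that fell. These 7 calls rest on values under 1.05. With the floor on low values raised to the 25th percentile no transporter passed (26 had an unadjusted p under 0.05), and no gene at all did. With no filter on low values 9 of 96 passed, and 1018 of 12167 genes did. Quantile normalization moved the median of all genes to 0.03. It left 6 higher and 5 lower of 58 in limma, and 579 and 646 of 9078 genes. At 4-fold it gave 8 higher and 9 lower, and 801 and 994 of all genes.

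Slco4a1 encodes a carrier of thyroid hormones, prostaglandins and other organic anions. It was at 8.46 and 6.44 in the pineal gland, 0.46 in the subcommissural organ, 0.451 in the subfornical organ and 0.372 in the ependyma, against 0.785 in total brain. Both pineal gland arrays were above 1.05 and no other array was. It rose at least 7.02-fold over total brain (limma adjusted p = 9.07e-05), and it was the single transporter whose lower pineal gland array lay at least 4-fold above every other tissue with values under 1.05 set to 1.05. Its other 2 probes did not show this: the brighter of them differed from total brain by -0.72 on the log2 scale. The pattern rests on 1 probe, and with the mean over all probes limma gave an adjusted p of 0.54.

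Abca7, a lipid transporter that also aids phagocytosis, was at 20.6 and 13.3 in the pineal gland and at 6.16 in the subcommissural organ, 1.33 in the subfornical organ and 1.23 in the ependyma, against 2.80 in total brain. The pineal gland was highest and the subcommissural organ next. The gene rose 5.91-fold over total brain (limma adjusted p = 0.00288). Abca1, which loads cholesterol onto apolipoprotein A-I, was at 5.64 and 2.29, against 0.947, and rose at least 3.42-fold (adjusted p = 0.0361, and 0.122 after quantile normalization). Abca2, a transporter of lysosomes known from oligodendrocytes, was at 2.50 and 1.86, against 11.6, and fell 5.39-fold (adjusted p = 0.00519, and 0.0626 after quantile normalization). In the Abca family 3 of 5 rose and 1 fell by limma, where 7.72% of all genes rose and 16.3% fell. Of the 3 that rose, the calls of Abca1 and Abca5 rest on values under 1.05. Beside the fall of Abca2, 7 oligodendrocyte genes summed to 56.5 and 33.7 in the pineal gland against 1268 in total brain, and their part in the result was not tested.

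Among transporters known from sealed capillaries, Abcb1a, Abcg2, Slco1a4 and Slco2b1 fell in the pineal gland, the calls of both Slco genes were lost after quantile normalization, and Abcc4 and Abcc5 did not pass. Abcb1a was at 0.438 and 1.004, against 9.66 in total brain, and fell at least 9.20-fold (limma adjusted p = 1.71e-06). Abcg2 was at 0.418 and -0.0328, against 7.28, and fell at least 6.93-fold (adjusted p = 5.26e-10). All 4 pineal gland values lay under 1.05. Slco1a4, which carries steroid conjugates and drugs at the capillary, was at 2.29 and 1.63, against 8.97, and fell 4.64-fold (adjusted p = 0.0127, and 0.084 after quantile normalization). Slco2b1, a carrier of sulfated steroids, was at 4.79 and 6.20, against 33.6, and fell 6.17-fold (adjusted p = 0.00215, and 0.0693 after quantile normalization). Over 8 endothelial genes the sum was 52.5 and 49.1 in the pineal gland, with 7 of 8 measured on each array, against 231 in total brain with 6 of 8. Most of that difference was Cldn5, which seals the barrier, at 11.1 and 11.8, against 167. Without it the sums were 41.4 and 37.3, against 63.6. Of 7 endothelial genes measured in this comparison, Cldn5 included, 1 rose and 1 fell by limma, with a median log2 difference of -0.97. The 1 that fell was Cldn5. Plvap, a gene of leaky vessels, was at 17.7 and 15.6, against 12.98, but it was at only 3.36 in the subfornical organ. Emcn, the 1 that rose, was at 3.52 and 3.22 in the pineal gland, against 0.394. Tek was lower there, at 5.65 and 6.13, against 20.6, and so was Esam, at 7.17 and 6.37, against 19.5. The part of vessel number and type in these differences was not tested.

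By fold, with the bound, Slc2a13 and Slc27a2 fell furthest of the 19 transporters that passed. Slc2a13, the proton-coupled inositol transporter, was at 1.84 and 0.553, against 17.7 in total brain, and fell at least 16.9-fold (limma adjusted p = 2.58e-07, and 0.058 after quantile normalization). Its other 2 probes differed by -3.04 and -0.26 on the log2 scale, so the size depends on the probe. The other inositol carrier, Slc5a3, was at 9.85 and 4.99, against 9.69, and did not pass. Slc27a2, which also activates very long chain fatty acids, was at 0.623 and 0.596, against 11.97, and fell at least 11.4-fold (adjusted p = 7.67e-08). Slc27a5, the bile acid ligase of liver, was at 0.153 and 0.277, against 5.24, and fell at least 4.98-fold. Slc27a3 was at 3.12 and 2.85, against 10.4, a log2 difference of -1.80 that did not pass (adjusted p = 0.0542). In the Slc27a family 2 of 6 fell and none rose by limma, where 16.3% of all genes fell and 7.72% rose.

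Some of these sizes lean on 1 of the pineal gland arrays. Slc2a13 was at least 16.9-fold lower without array 1 and 9.61-fold lower without array 2, and Abca1 was at least 2.18-fold higher without array 1 and at least 5.37-fold higher without array 2. Slc22a3, described next, was 3.32-fold lower without array 1 and at least 4.82-fold lower without array 2. For Abcb1a, Abcg2 and Slc22a4 every pineal gland value lay under 1.05, so the bound could not differ between the arrays. With values down to the floor, the log2 difference of Abcb1a was -3.27 without array 1 and -4.46 without array 2. It was -5.68 and -4.12 for Abcg2, and -5.19 and -2.80 for Slc22a4.

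In the Slc22a family of organic ion carriers 5 of 11 measured genes fell in the pineal gland and none rose, where 16.3% of all genes fell. After quantile normalization none of the 5 passed (adjusted p = 0.065 to 0.131). Slc22a3, the low-affinity transporter that clears monoamines outside synapses, was at 0.674 and 1.52, against 5.07, and fell at least 4.82-fold (limma adjusted p = 0.00827). Slc22a4, the ergothioneine carrier, was at 0.743 and -0.0371, against 5.18, and fell at least 4.93-fold (adjusted p = 6.92e-07). Slc22a23, whose substrate is not settled, was at 15.7 and 8.44, against 49.6, and fell 4.32-fold (adjusted p = 0.0188). Its other 2 measured probes differed by -1.05 and -1.16 on the log2 scale, and with the mean over all probes it did not pass (adjusted p = 0.219). Slc22a17 fell 3.57-fold (adjusted p = 0.0486). The urate carrier Slc22a12 was the other call and is one of several genes named here after their values were seen. These also include Slc2a6, Slc16a13 and Abcb9, which fell 4.51-fold, 4.53-fold and 4.48-fold, and Slc5a11, Slc5a5 and Slco6c1, with bounds of at least 4.59-fold, 1.83-fold and 2.02-fold. Of these 6 only Slc5a11 passed after quantile normalization, and its other 2 probes were under 1.05 on both sides. Slco6c1 was at -0.103 and 1.74, against 2.12, so its fall rests on array 1: without it the gene was 1.22-fold lower. Slc16a13 was 2.57-fold lower without array 1 and at least 7.86-fold lower without array 2.

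In the monocarboxylate family, Slc16a6 was at 4.29 and 2.77 in the pineal gland, against 0.281 in total brain, and rose at least 3.28-fold (limma adjusted p = 8.90e-06). In zebrafish liver its product exports ketone bodies. The lactate carriers did not pass: Slc16a1 was at 1.53 and 1.198, against 1.88, and Slc16a3 at 2.71 and 1.30, against 1.80. Slc28a2, a sodium-coupled purine nucleoside carrier, was at 1.90 and 1.97, against 0.107, at least 1.84-fold higher. Its pineal gland values lay just above the threshold for a measured gene, and the limma call used a total brain value raised to the floor. Abcg3l4, a rodent relative of Abcg2, was at 4.03 and 7.88, against 1.197, and rose 4.71-fold (adjusted p = 0.0116, 0.088 after quantile normalization and 0.442 with the mean over all probes). Abca5, named after its value was seen, was at 4.14 and 2.37, against 0.485, and rose at least 2.98-fold.

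Abcc1, which exports glutathione and its conjugates, was at 90.0 and 51.0 in the pineal gland, against 19.4 in total brain. This log2 difference of 1.80 did not pass (limma adjusted p = 0.0537), and it passed after quantile normalization at 2.38. Abcc9 and Abcc8, the sulfonylurea receptor subunits of ATP-sensitive potassium channels, were at 19.05 and 16.0, against 13.4, and at 3.08 and 3.16, against 0.925. Neither passed. Abcc4 and Abcc5, exporters of cyclic nucleotides, were at 1.86 and 1.38, against 3.12, and at 26.9 and 25.7, against 41.4, and did not pass either.

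**Figure D2:**
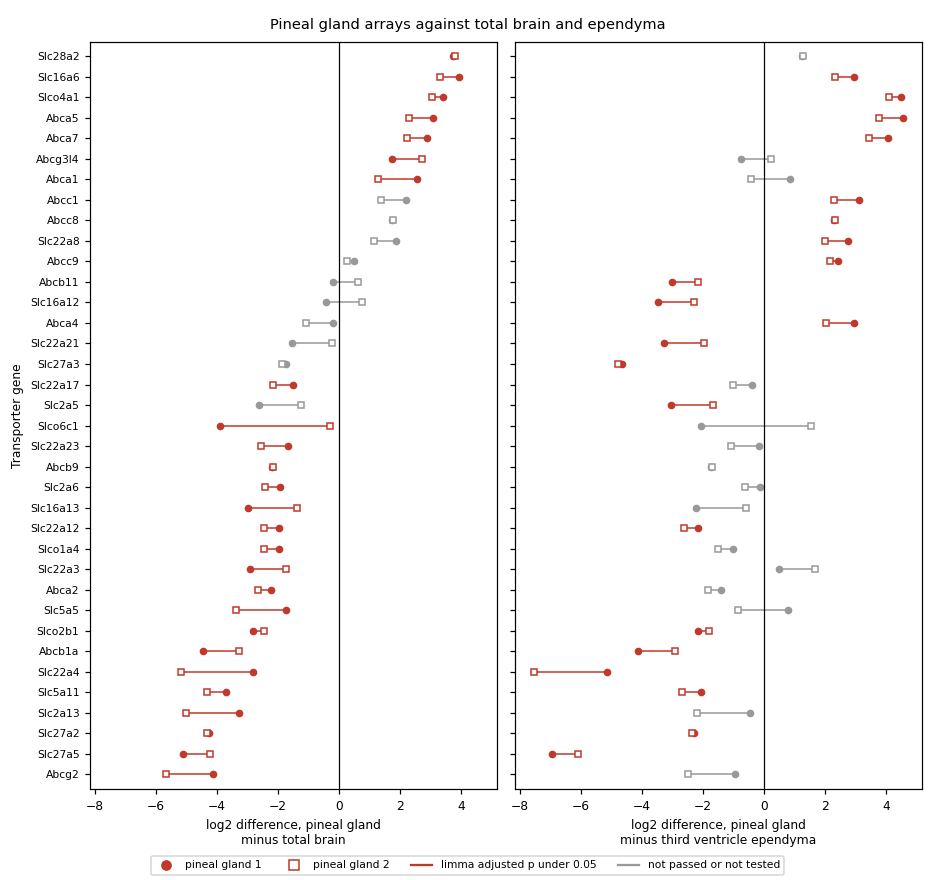
Each row is a transporter that passed limma in one of the pineal gland comparisons, and the x axis gives the log2 difference, with values under 0.142 raised to it, of each pineal gland array (circle, array 1; open square, array 2) from total brain (left) and from the ependyma (right), red where limma passed and grey where it did not or was not run. Slco4a1 and Abca7 lie to the right in both panels, and Slc27a5 and Abcb1a to the left in both.

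Set against the ependyma, Abca7, Abcc1, Abcc9 and Slco4a1 rose in the pineal gland, and Slc27a3, Slc22a4, Slc27a5 and Abcb1a fell. Of 58 measured transporters, 9 were at least 4-fold higher and 11 at least 4-fold lower, 20 in all (34.5%). Of 8964 measured genes 18.3% differed as much, 6.57% higher and 11.7% lower. By limma 9 rose and 12 fell, 21 of 58 (36.2%). Of all measured genes 20.3% were called, 7.32% higher and 13.0% lower. For 11 of the 21 calls, 5 higher and 6 lower, the bound against 1.05 was under the 3.60-fold that a call needed, so they rest on values under 1.05. Abca4, Abca5, Abcc8, Slc22a8 and Abcb11 below are among them. The median log2 difference was -0.73 for the transporters and -0.11 for all genes. With values under 1.05 set to 1.05, 4 transporters were higher and 4 lower, 8 in all, and of all genes 403 were higher and 774 lower. The share of the 58 transporters was then close to that of the 8964 genes. With the floor at the 25th percentile no transporter passed limma (26 had an unadjusted p under 0.05), and no gene at all did. Both comparisons of the pineal gland use the same 2 arrays, so they are not independent. Quantile normalization left 8 higher and 6 lower of 59 by limma, and 489 and 628 of 8979 genes. With no filter on low values 7 of 96 passed, and 731 of 12167 genes did.

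Abca7 rose 13.4-fold over the ependyma (limma adjusted p = 3.84e-06), with the levels given above. Abcc1 was at 90.0 and 51.0, against 10.5, and rose 6.48-fold (adjusted p = 0.00162), and its second probe gave a log2 difference of 2.42. Abcc9 was at 19.05 and 16.0, against 3.56, and rose 4.90-fold (adjusted p = 0.0098). Its second probe gave a log2 difference of 1.28, and the call was lost with the mean over all probes (adjusted p = 0.051). Abcc8 was at 3.08 and 3.16, against 0.624, and rose at least 2.97-fold (adjusted p = 0.00875). In the Abca and Abcc families 3 of 5 and 3 of 6 measured genes rose and none fell by limma, whereas in the Abcb family none of 6 rose and 2 fell, and in the Abcg family none of 4 passed. Of all genes 7.32% rose and 13.0% fell. Among these family calls, those of Abca4, Abca5, Abcc8 and Abcb11 rest on values under 1.05. The bounds were at least 2.94-fold for Abca4 and at least 2.98-fold for Abca5. Slco4a1 rose at least 7.02-fold (adjusted p = 6.32e-08), again by 1 of its probes, and did not pass with the mean over all probes (adjusted p = 0.0995). Slc22a8, which clears organic anions at barriers, was at 1.58 and 0.942, against 0.233, and its rise of at least 1.16-fold lay close to the threshold for a measured gene and did not pass after quantile normalization (adjusted p = 0.0535).

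Abcc9 is itself a gene of pericytes and smooth muscle. The 11 genes of mural cells and fibroblasts, Abcc9 among them, summed to 127 and 95.8 in the pineal gland, with 9 of 11 measured on each array, against 39.8 in the ependyma with 8 of 11. Pdgfrb, a defining pericyte gene, was at 30.9 and 18.4, against 4.70, whereas Cspg4 of the same list was lower, at 5.77 and 5.14, against 14.8. Of 9 measured genes of the list, Abcc9 included, 4 rose and 0 fell by limma, where 7.32% and 13.0% of all genes did. The part of these cells in the rise of Abcc9 was not tested.

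Among the genes that fell, Slc27a3 was at 3.12 and 2.85 in the pineal gland, against 78.2 in the ependyma, 26.2-fold lower (limma adjusted p = 2.12e-09). Slc22a4 was at least 25.3-fold lower, with 0.743 and -0.0371 against 26.6 (adjusted p = 1.39e-16). Slc27a5 was at least 18.1-fold lower, with 0.153 and 0.277 against 19.04 (adjusted p = 1.84e-17). Both pineal gland values of Slc22a4 and Slc27a5 lay under 1.05, so only the ependyma side was measured. Abcb1a was at least 7.27-fold lower, with 0.438 and 1.004 against 7.64 (adjusted p = 1.60e-05). Slco2b1 was 3.94-fold lower, with 4.79 and 6.20 against 21.5 (adjusted p = 0.032, and 0.0926 after quantile normalization). Abcb11, the bile salt export pump of liver, was at 0.359 and 0.64, against 2.89, and fell at least 2.75-fold (adjusted p = 0.00266, 0.0564 after quantile normalization and 0.0874 with no filter).

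**Figure D3:**
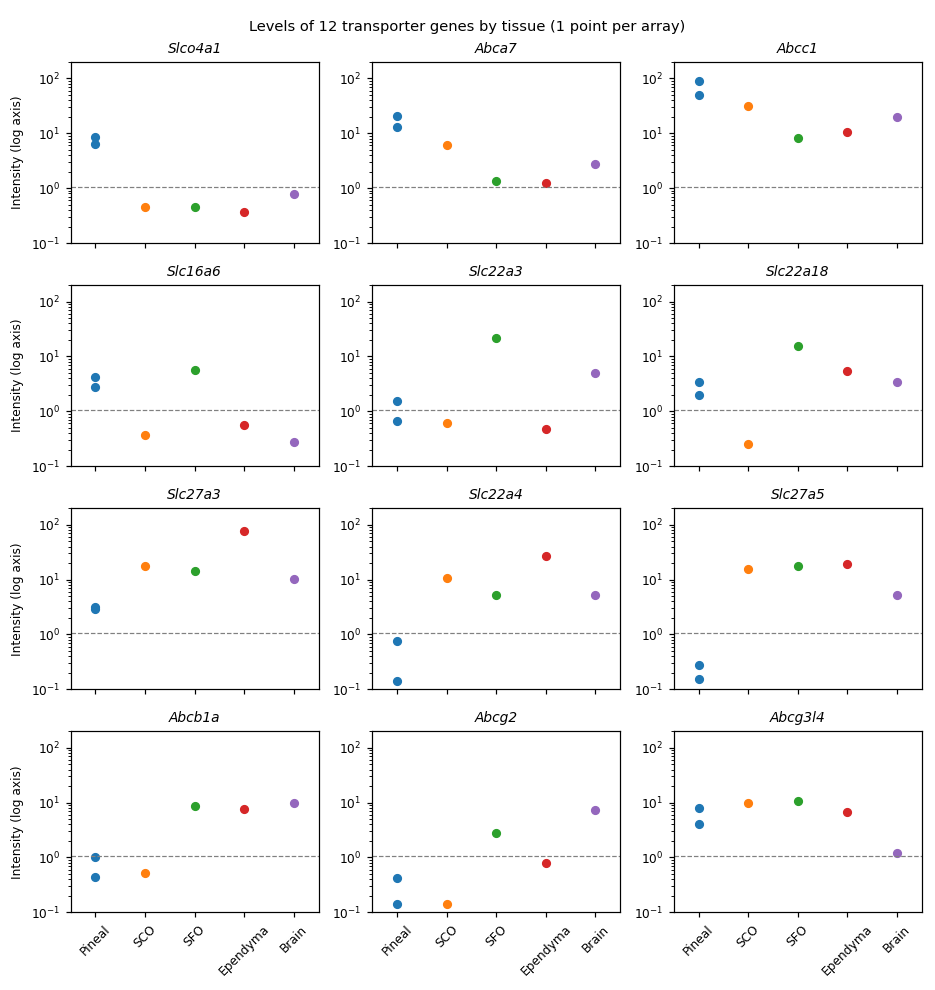
Intensity (log axis, 1 point per array, values under the floor drawn at it) of 12 transporter genes in the pineal gland, the subcommissural organ (SCO), the subfornical organ (SFO), the ependyma and total brain, with a dashed line at 1.05. Slco4a1 is above the line in the pineal gland alone, Slc22a3 peaks in the subfornical organ at 21.5, and Slc27a3 peaks in the ependyma at 78.2.

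The 3 other dissected tissues had 1 array each, so differences between them and total brain have no replicate check and carry no p-value. All 3 were set against the same total brain array. As a scale, the pineal gland arrays differed from each other by a log2 SD of 0.57 over 43 transporters. These were the transporters whose mean log2 level over the pair reached the threshold for a measured gene. None of the 43 reached 4-fold. Array 1 was brighter than array 2 by a median log2 difference of 0.45 over the 43 and 0.42 over 8007 genes. The SD leaves this shift out. Lower transporters were left out, such as Slco6c1 at -0.103 and 1.74 and Slc22a4 at 0.743 and -0.0371 in the pineal gland. The scale therefore does not cover genes that low, although the counts at 4-fold use such values.

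In the subcommissural organ Abcb1a, Abcg2, Slc27a2, Slc22a23 and Slc22a3 were lower than in total brain. Of 54 measured transporters, 3 were at least 4-fold higher and 11 at least 4-fold lower, 14 in all (25.9%), and 23.7% of 9126 genes differed as much, 8.76% higher and 14.9% lower. Quantile normalization gave 5 higher and 10 lower of 53, and 918 and 1134 of 9108 genes. Abcb1a was at 0.514, against 9.66, at least 9.20-fold lower, and Abcg2 was at -0.0996, against 7.28, at least 6.93-fold lower. Slc27a2 was at 1.19, against 11.97, 10.03-fold lower. Slc22a23 was at 7.69, against 49.6, 6.45-fold lower, and its other 2 measured probes differed by -1.06 and -1.25 on the log2 scale. Slc22a3 was at least 4.82-fold lower, with a log2 difference of -1.77 by its second probe. Other members of these families were higher: Slc22a4 was at 10.6, against 5.18, 2.05-fold higher, Slc22a5 at 3.77, against 1.40, 2.70-fold higher, and Abcc1 at 31.4, against 19.4, 1.61-fold higher. The 8 endothelial genes summed to 64.4 in the subcommissural organ, with 6 of 8 measured, against 231 in total brain, and without Cldn5, which was at 50.0, against 167, the sums were 14.4 and 63.6. Their part in the low Abcb1a and Abcg2 levels was not tested.

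A urate carrier, a channel subunit and an ABCG gene were the 3 genes at least 4-fold higher in the subcommissural organ than in total brain. Slc2a9, a urate and sugar carrier, was at 5.50, against 0.783, at least 5.23-fold higher. Abcc8 was at 4.04, against 0.925, at least 3.84-fold higher, and its level there was near that of the pineal gland. Abcg3l4 was at 9.71, against 1.197, 8.11-fold higher. Below 4-fold, Slc27a1 was at 179, against 50.6, 3.53-fold higher, and Slc5a3, the sodium-coupled inositol carrier that responds to osmotic stress, was at 31.1, against 9.69, 3.21-fold higher.

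Against the ependyma, with which it shares cilia genes, the subcommissural organ had 3 transporters at least 4-fold higher and 7 at least 4-fold lower among 53, 10 in all (18.9%), and 12.9% of 8893 genes differed as much, 5.0% higher and 7.89% lower. With values under 1.05 set to 1.05 the count was 4, with 1 higher and 3 lower, and of all genes 259 were higher and 434 lower. The share of the 53 transporters was then close to that of the 8893 genes. Abca7 was at 6.16, against 1.23, 4.998-fold higher. Abcb1a was at 0.514, against 7.64, at least 7.27-fold lower, and Slc22a18, an organic cation carrier from an imprinted locus, was at 0.257, against 5.50, at least 5.23-fold lower. Slc27a3 was at 18.0, against 78.2, 4.34-fold lower.

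The subfornical organ lay closest to total brain by count. Of 55 measured transporters, 5 were at least 4-fold higher and 1 at least 4-fold lower, 6 in all (10.9%), and 17.0% of 9173 genes differed as much, 7.23% higher and 9.76% lower. Quantile normalization gave 6 higher and 0 lower of 54, and 735 and 740 of 9161 genes. Slc22a3 was at 21.5, against 5.07 in total brain, 4.23-fold higher, and its second probe gave a log2 difference of 2.16. It was at least 4-fold above every other tissue. Slc22a18 was at 15.6, against 3.40, 4.58-fold higher, and Slc16a6 at 5.67, against 0.281, at least 5.40-fold higher. Abcg3l4 was at 10.9, against 1.197, 9.09-fold higher, and Slc2a5, the fructose transporter of microglia, named after its value was seen, was at 3.70, against 0.879, at least 3.52-fold higher. Beside Slc2a5, 9 genes of microglia and macrophages summed to 704 in the subfornical organ, with 8 of 9 measured, against 452 in total brain with 8 of 9, and their part was not tested. Abcc9 was at 3.33, against 13.4, 4.02-fold lower, but its second probe was at 2.98, against 5.72, a log2 difference of -0.94.

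Abcb1a, Slco1a4 and Abcg2 were not at least 4-fold lower in the subfornical organ. Abcb1a was at 8.64, against 9.66, 1.12-fold lower, and Slco1a4 at 6.73, against 8.97, 1.33-fold lower. Abcg2 was at 2.81, against 7.28. The endothelial sum was 116 in the subfornical organ, with 7 of 8 measured, against 231 in total brain, and without Cldn5 it was 26.1, against 63.6.

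Against the ependyma, 2 transporters were at least 4-fold higher in the subfornical organ and 7 at least 4-fold lower among 58, 9 in all (15.5%), and 13.6% of 9054 genes differed as much, 6.89% higher and 6.75% lower. With values under 1.05 set to 1.05 the count was 4, with 2 higher and 2 lower, and of all genes 397 were higher and 386 lower. Slc22a3 was at 21.5, against 0.483, at least 20.4-fold higher, with a log2 difference of 5.01 by its second probe. Slc16a6 was at 5.67, against 0.556, at least 5.40-fold higher. Slc27a3 was at 14.5, against 78.2, 5.38-fold lower, and Slc22a4 at 5.22, against 26.6, 5.10-fold lower.

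The ependyma itself differed from total brain in both directions. Of 59 measured transporters, 5 were at least 4-fold higher and 6 at least 4-fold lower, 11 in all (18.6%), and 17.0% of 9113 genes differed as much, 7.47% higher and 9.51% lower. Slc27a3 was at 78.2, against 10.4, 7.55-fold higher, and it was at least 4-fold above every other tissue. Slc22a4 was at 26.6, against 5.18, 5.14-fold higher. Abcg3l4 was at 6.75, against 1.197, 5.64-fold higher, and Abcb11 at 2.89, against 0.412, at least 2.75-fold higher. Abcb11 was measured on no other array.

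Slc2a13, Abcg1, Abca4, Abcg2 and Slc22a3 were lower in the ependyma. Slc2a13 was at 2.56, against 17.7 in total brain, 6.94-fold lower, and its other probes differed by -1.39 and -0.57 on the log2 scale. Abcg1, which exports sterols, was at 22.2, against 95.8, 4.32-fold lower. Abca4, the retinoid transporter of photoreceptors, was at 0.55, against 4.79, at least 4.56-fold lower. Abcg2 was at 0.799, against 7.28, at least 6.93-fold lower, whereas Abcb1a was at 7.64, against 9.66, 1.27-fold lower. Slc22a3 was at 0.483, against 5.07, at least 4.82-fold lower. Abcb6, a porphyrin transporter, was at 59.0, against 28.4, 2.08-fold higher. The 6 neuronal genes summed to 150 in the ependyma against 863 in total brain, and their part in the lower carriers was not tested.

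**Figure D4:**
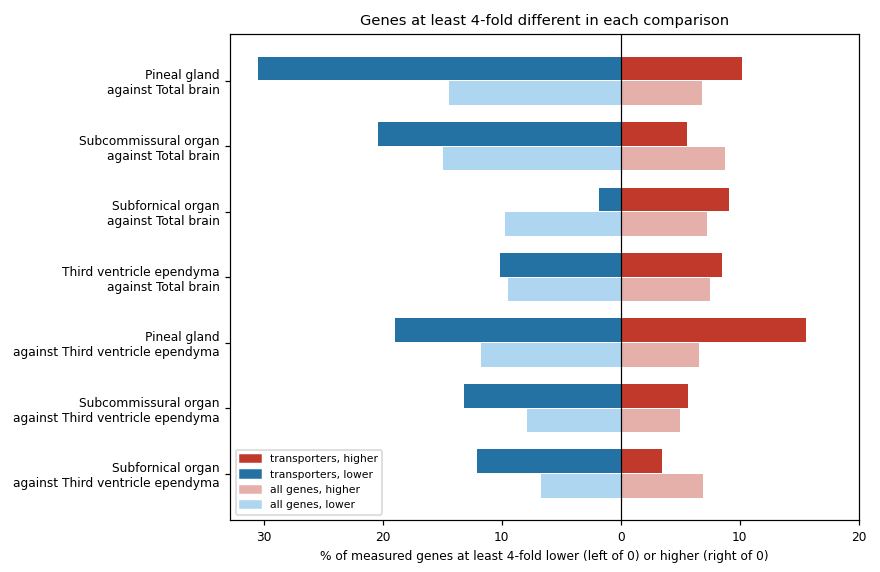
Percent of measured genes at least 4-fold lower or higher in each of the 7 comparisons, for the transporters and for all genes. The pineal gland comparisons have the longest transporter bars, with 40.7% against total brain and 34.5% against the ependyma in both directions together, and the subfornical organ against total brain the shortest at 10.9%.

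Some well-lit carriers differed less than 4-fold in every comparison. Slc29a3, a nucleoside carrier of lysosomes, was at 23.4 and 21.4 in the pineal gland, 32.9 in the subcommissural organ, 69.7 in the subfornical organ and 41.4 in the ependyma, against 54.6 in total brain. Slc16a11, which is linked to lipid metabolism in liver, was at 2.25 and 2.82 in the pineal gland, 11.2 in the subcommissural organ, 7.04 in the subfornical organ and 5.51 in the ependyma, against 7.41 in total brain. The pineal gland was lowest for both genes, and neither difference from total brain passed limma (adjusted p = 0.207 and 0.108). Slc16a1, a lactate carrier of glia and capillaries, was at 5.01 in the subfornical organ and 4.59 in the ependyma, against 1.88 in total brain, 2.67-fold and 2.44-fold higher. Slc2a4, the insulin-responsive glucose transporter, reached 1.05 on 1 array alone, with 1.09 and 0.823 in the pineal gland, against 0.455 in total brain.

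Across the tissues, Slc27a1 was higher in the 3 ventricular samples than in total brain, at 179 in the subcommissural organ, 122 in the subfornical organ and 124 in the ependyma, against 50.6. The folds were 3.53, 2.41 and 2.44. The pineal gland did not share this, at 46.6 and 32.1. Slc27a5 was also higher in the ventricular samples than in total brain, at 15.3 in the subcommissural organ, 17.5 in the subfornical organ and 19.04 in the ependyma, against 5.24, and was under 1.05 in the pineal gland. Abcg3l4 was higher than in total brain on all 5 dissected arrays, from 4.03 to 10.9 against 1.197, and a second probe was under 1.05 on every array.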

How the data were processed

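RNA from dissected rat brain regions underwent repeated in vitro transcription to amplify it and was labelled with CY5, per the labels' protocols. The deposited values are linear intensities, 1 per probe and array. Their array medians lie near 1.05. Scanner, background correction and scaling are not given in the sources used here. With 6 arrays, their number limits the precision.

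Probes missing on any array were left out, which kept 34963 of 35129. Probes with 1 gene symbol numbered 16865 and gave 12167 genes, each read from the probe with the highest mean. Values under 0.142 (5th percentile of all arrays) were raised to it before log2. A gene was measured where the higher side reached 1.05. A difference was called at 4-fold, with both pineal gland arrays on the same side. limma 3.58.1 in R 4.3.3 (lmFit, eBayes) was fitted to all 6 arrays with 1 mean per tissue, and p-values were adjusted by Benjamini-Hochberg over all measured genes. The fit was tested on simulated data. It recovered 55 of 98 changes of log2 size 2 for the pineal gland against total brain and 47 of 99 against the ependyma. At log2 size 4 it recovered 99 of 99 in each comparison. False calls numbered 12 against total brain and 5 against the ependyma. Python 3.11.15 was used otherwise.

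The named genes were the brightest of each family, the 5 transporters with the largest change in each direction of each comparison that reach 4-fold with the bound, those at least 4-fold above every other tissue, and a list of carriers known in brain. Slco1a2 and Slco3a1 of that list were not analysed here. The transporters and lists were chosen with earlier results of these data known. The alternatives were quantile normalization, other filters and floors, the mean over probes and leaving out each pineal gland array.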

Additional observations from a re-analysis of the deposited data

How the results depend on the processing

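Changes of direction by gene were looked for only in the 46 genes named by rule, and none of these reversed a called direction. Slc5a11 was not among them. Its brightest probe gave a log2 difference of -2.65 for the subcommissural organ against total brain. Its other probes, under 1.05 on both sides, gave 1.55 and 1.74. The counts at 4-fold moved most with the filter on low values. With the higher side at the 75th percentile (6.04), fewer genes were measured. Against total brain the counts were 13 of 27 for the pineal gland, 6 of 29 for the subcommissural organ and 6 of 28 for the ependyma. Of 5995, 6146 and 5962 genes, 299, 482 and 358 were higher and 946, 941 and 529 lower. Against the ependyma they were 8 of 23 for the pineal gland, 3 of 20 for the subcommissural organ and 3 of 25 for the subfornical organ. Of 5587, 5548 and 5691 genes, 349, 216 and 321 were higher and 687, 353 and 305 lower. With no filter, of 96 transporters, they were 15 for the subfornical organ and 19 for the ependyma against total brain. For the subfornical organ against the ependyma the count was 16. Of 12167 genes, 824, 809 and 773 were then higher and 991, 968 and 726 lower. Setting values under 1.05 to it was chosen after seeing the data. The 4-fold counts were then 8, 4 and 4 for the pineal gland, the subcommissural organ and the subfornical organ against the ependyma. Of all genes 403, 259 and 397 were higher and 774, 434 and 386 lower. Leaving out array 1 or array 2 of the pineal gland gave 22 of 59 and 20 of 61 at 4-fold against total brain. Of 9080 and 9177 genes, 570 and 744 were higher and 1559 and 1179 lower. Against the ependyma it gave 19 of 60 and 24 of 59. Of 8992 and 9081 genes, 541 and 749 were higher and 1188 and 980 lower. The limma counts against total brain were 11 of 58 (quantile normalization), 9 of 96 (no filter), 16 of 27 (75th percentile) and 0 of 59 (floor at the 25th percentile). Of all genes 1225 of 9078, 1018 of 12167 and 1582 of 5995 were called under the first 3. Against the ependyma they were 7 of 96 (no filter), 12 of 23 (75th percentile) and 0 of 58 (that floor). Of all genes 731 of 12167 and 1304 of 5587 were called under the first 2. Under that floor limma called 0 of all genes, with 2489 and 2126 at an unadjusted p under 0.05 and smallest adjusted p of 0.0874 and 0.106. After quantile normalization the split at 4-fold for the pineal gland against total brain was 8 higher and 9 lower, where it was 6 and 18 as deposited, and limma gave 6 higher and 5 lower, with 10 of the 26 calls shared. Against the ependyma limma gave 8 higher and 6 lower, all 14 shared. Quantile normalization moved the median of all genes against total brain to 0.01 in the subcommissural organ (-0.29 as deposited), 0.06 in the subfornical organ (-0.20) and -0.06 in the ependyma (-0.41). The cause of these shifts was not tested. No paired analysis was possible because only the pineal gland has replicate numbers. Low signal limits the results, since 28 of 96 transporters never reached 1.05 and many folds are bounds.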

Other observations

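Genes that work with these transporters were read from lists chosen with earlier results known. In the pineal gland, Slc6a6, the taurine carrier, rose 11.5-fold over total brain (limma adjusted p = 1.52e-05) and 11.0-fold over the ependyma (adjusted p = 2.32e-05). Of 18 measured genes of glycolysis and lactate metabolism, 1 rose and 3 fell against total brain, shares near the 7.72% and 16.3% of all genes that did. Hk2, a hexokinase, rose 19.6-fold (adjusted p = 7.80e-08), and Pfkp and Aldoc fell 20.4-fold and 8.83-fold. Ldha, which makes lactate, rose 10.2-fold over the ependyma (adjusted p = 4.50e-05). Of 10 genes of fatty acid activation and binding, 1 rose and 4 fell against total brain, where 7.72% and 16.3% of all genes did: Acsl1, an acyl-CoA synthetase, rose 4.85-fold, and Fabp7 and Acsbg1, both known from astrocytes, fell at least 41.3-fold and at least 48.5-fold. Astrocyte genes summed to 111 and 52.6 in the pineal gland against 461 in total brain. Most of the pineal gland sum was Gja1, at 88.1 and 39.1, against 98.6. Of 6 measured astrocyte genes 0 rose and 5 fell by limma, where 7.72% and 16.3% of all genes did. The part of astrocytes in these differences was not tested.

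Partners of the channel and lactate carriers differed in the single arrays as well. Kcnj11, a pore of ATP-sensitive potassium channels, fell 3.89-fold in the pineal gland against total brain (limma adjusted p = 0.0322) and was at 0.786 in the subfornical organ, against 31.6 in total brain, at least 30.1-fold lower. Emb, a chaperone of monocarboxylate carriers, was at 15.3 in the subfornical organ, against 3.77 in total brain, 4.05-fold higher. Nptn and Bsg, the other genes of its list, were lower there, at 2.79 and 243, against 12.96 and 347 in total brain. Mgst1, a membrane glutathione transferase, was at 13.5 in the subfornical organ, against 1.08 in total brain, 12.5-fold higher. Hk2 was at 17.5 in the subfornical organ and 19.4 in the ependyma, against 1.19 in total brain.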
